A study of Mus musculus with 12 samples.

Results

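Slc24a4, Fcho1 and Tox3 are 3 protein-coding genes that were picked, out of 32285 genes in the count matrices, for their difference between 3xTg-AD and WT oligodendrocytes. Slc24a4 was lower and Fcho1 and Tox3 were higher in 3xTg-AD oligodendrocytes at 12 months, and the genes were chosen by these 12-month oligodendrocyte values, which are therefore given as a description, with no test. Here the same genes were followed at 6 months, in other mice, and in the other cell classes of the same libraries, to ask whether the difference was present at both ages and in oligodendrocytes alone. The data were single-nucleus RNA sequencing (snRNA-seq) counts of sorted nuclei from 12 left hippocampi, each of a female mouse, 1 library per mouse and 3 libraries per group. The 3xTg-AD mice carried the APPSwe and tauP301L transgenes, among their alleles, on a mixed B6 and 129 background, were 6 or 12 months old, and were compared with WT littermates of the same age. The promoter that drives both transgenes in this line, Thy1, is active mainly in neurons. Sorting was by flow cytometry, and each library is named here by its genotype, age and sample number.

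Oligodendrocytes wrap axons in myelin, and they arise from oligodendrocyte precursor cells (OPCs), which persist in the adult brain. Slc24a4 encodes a potassium-dependent sodium/calcium exchanger (NCKX4), a membrane protein that moves calcium out of the cell, and its locus is among those named by genetic studies of Alzheimer's disease in people. Fcho1 encodes an F-BAR domain protein that binds the plasma membrane and takes part in the start of clathrin-mediated endocytosis. Tox3 encodes a nuclear protein with an HMG box, a DNA-binding fold, and has been linked to calcium-dependent transcription in neurons.

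Oligodendrocytes were nuclei with more than 80 UMIs (unique molecular identifiers, counted transcripts) of 9 markers per 10000 UMIs. They numbered 29236 of 184956 retained nuclei (15.8%), with 1761 to 4733 per library and a median of 1893 UMIs per nucleus. Mbp and Mog are among the gating markers, so their levels only describe the gate. Mbp, a myelin protein gene, was at 3657 to 4293 counts per 1000000 UMIs (CPM) in the oligodendrocyte sums and at most 126 CPM in the sums of OPCs, astrocytes, microglia and neurons, and Mog was at 1022 to 1308 CPM against at most 25.3 CPM. Of 21 further myelin and oligodendrocyte genes that the gate did not use, 18 were higher in every oligodendrocyte sum than in any sum of those other classes, among them Opalin (188 to 390 against at most 20.2 CPM) and Aspa (1006 to 1288 against at most 53.9 CPM). Olig1, Olig2 and Gjc3 were not. In the neighbourhood of the gate, 979 nuclei lay between 60 and 80 marker UMIs per 10000 and 199 of those gated lay below 100. The libraries held 79177051 to 128323908 UMIs each, and any pair of libraries shared 29 to 107 nuclear barcodes, at most 0.648% of the smaller one. Of 17 marker lists summed in the oligodendrocyte class, 7 did not overlap between genotypes at 6 months, where 15.9% of single tested genes did not. The sums of 3xTg-AD and WT libraries were 239 to 273 and 347 to 352 CPM for the 6 markers of newly formed oligodendrocytes, 106 to 121 and 127 to 139 CPM for the 6 OPC markers, 353 to 379 and 382 to 405 CPM for the 8 astrocyte markers, and 118 to 134 and 136 to 166 CPM for the 6 markers of thalamic neurons. They were higher in 3xTg-AD for the 9 oligodendrocyte markers (23335 to 24999 and 20765 to 22322 CPM), the 6 meningeal and fibroblast markers (20.4 to 24.8 and 12.3 to 17.1 CPM) and the 4 border macrophage markers (3.83 to 9.25 and 0.492 to 1.87 CPM, Cd163 and Lyve1 being at 0 in WT). At 12 months 4 lists did not overlap, where 14.5% of single tested genes did not. These lists were the oligodendrocyte markers (23550 to 24830 and 22388 to 23384 CPM), the 7 markers of striatal medium spiny neurons (55.6 to 88.5 and 31.5 to 46.6 CPM), those of thalamic neurons (137 to 172 and 82.8 to 122 CPM) and the 6 endothelial markers (2.81 to 6.23 and 6.52 to 9.05 CPM). No other marker of the lists named here was at 0 in a group. The part of these differences in the results on Slc24a4, Fcho1 and Tox3 was not tested.

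The members lie on 2 chromosomes. Slc24a4 spans chr12:102128733-102267091 on the plus strand of GRCm38. Fcho1 spans chr8:71708387-71725716 and Tox3 chr8:90247040-90348343, both on the minus strand and 18.5 Mb apart. The promoter windows, 250 bases before to 50 bases after the annotated start (RefSeq, GRCm38.p6), are shown because the genes differed so widely between the genotypes at 12 months, Slc24a4 being low in 3xTg-AD and Fcho1 low in WT oligodendrocytes. Capitals mark matches to GGGCGG, the GC box, on either strand.
Slc24a4, chr12:102128477-102128776, plus strand: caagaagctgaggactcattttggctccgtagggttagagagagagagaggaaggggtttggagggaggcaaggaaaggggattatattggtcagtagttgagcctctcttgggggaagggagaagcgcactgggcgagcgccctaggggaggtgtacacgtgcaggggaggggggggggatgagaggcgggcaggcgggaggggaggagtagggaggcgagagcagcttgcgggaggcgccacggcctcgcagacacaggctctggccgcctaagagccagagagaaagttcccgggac
Fcho1, chr8:71725632-71725931, minus strand: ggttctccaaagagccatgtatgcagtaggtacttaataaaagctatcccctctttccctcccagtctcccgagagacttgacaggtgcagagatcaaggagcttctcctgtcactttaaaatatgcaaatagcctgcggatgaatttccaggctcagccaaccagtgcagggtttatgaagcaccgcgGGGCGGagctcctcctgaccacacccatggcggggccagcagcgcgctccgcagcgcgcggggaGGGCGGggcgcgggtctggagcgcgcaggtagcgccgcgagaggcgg
Tox3, chr8:90348203-90348502, minus strand: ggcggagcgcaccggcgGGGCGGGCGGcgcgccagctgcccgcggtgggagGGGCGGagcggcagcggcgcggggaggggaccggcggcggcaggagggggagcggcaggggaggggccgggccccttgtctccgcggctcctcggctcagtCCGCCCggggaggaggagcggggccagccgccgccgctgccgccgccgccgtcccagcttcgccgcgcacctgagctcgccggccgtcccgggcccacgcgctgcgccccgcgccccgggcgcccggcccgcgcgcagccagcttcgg
The windows of Fcho1 and Tox3 held 2 and 4 GC box matches, some of those of Tox3 overlapping, and that of Slc24a4 held 0, while 35.7% of 32851 mouse promoter windows held at least 1. The 3 windows held no TATAAA and no ACAAAG, the core of SOX-type sites, on either strand (13.6% and 18.7% of all windows held them). The Tox3 window was dense in CpG, with 52 CpG pairs, more than 99.4% of all windows, against 21 in Fcho1 and 14 in Slc24a4. No binding or methylation was measured in these samples.

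Slc24a4 was low in 3xTg-AD oligodendrocytes at both ages. At 12 months its level was 104 CPM in WT library 4, 111 CPM in library 8 and 69.5 CPM in library 12, against 3.09, 1.51 and 1.99 CPM in 3xTg-AD libraries 2, 6 and 10. These levels rest on 315 to 836 UMIs in each WT library and 8 to 20 UMIs in each 3xTg-AD library, and the genotypes did not overlap, every 3xTg-AD library being lower, as for 6.95% of all genes. The log2 fold change of 3xTg-AD against WT at 12 months was -5.55 (SE 0.28), the value for which the gene was chosen. Around it in the ranking of 12787 genes by absolute log2 fold change stood Npsr1 (-6.40) above and Gm42743 (-5.40) below.

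At 6 months, in mice that no 12-month value came from, Slc24a4 was at 15.4, 19.7 and 40.9 CPM in WT libraries 3, 7 and 11 and at 1.02, 2.10 and 1.18 CPM in 3xTg-AD libraries 1, 5 and 9. Every 3xTg-AD library was below every WT library, as for 8.29% of all genes. The gene was called lower in 3xTg-AD, with a log2 fold change of -4.07 (SE 0.46, n = 3 per genotype) and an adjusted p = 0.00121 (edgeR quasi-likelihood test with Benjamini-Hochberg adjustment over 12456 genes). Calls needed both an adjusted p below 0.05 and a log2 fold change beyond 0.2 in either direction, which 1.16% of the tested genes met at 6 months (0.690% lower and 0.466% higher) and 1.70% at 12 months. Slc24a4 was the 1 member of 3 called at 6 months, and earlier results of these data were known when it was picked. In WT oligodendrocytes every 12-month library (69.5 to 111 CPM) was above every 6-month library (15.4 to 40.9 CPM), an order found in 6.18% of genes. The 12-month WT values were among those that chose the gene, so this order is a description and no test of age. The 3xTg-AD levels of both ages overlapped.

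**Figure D1:**
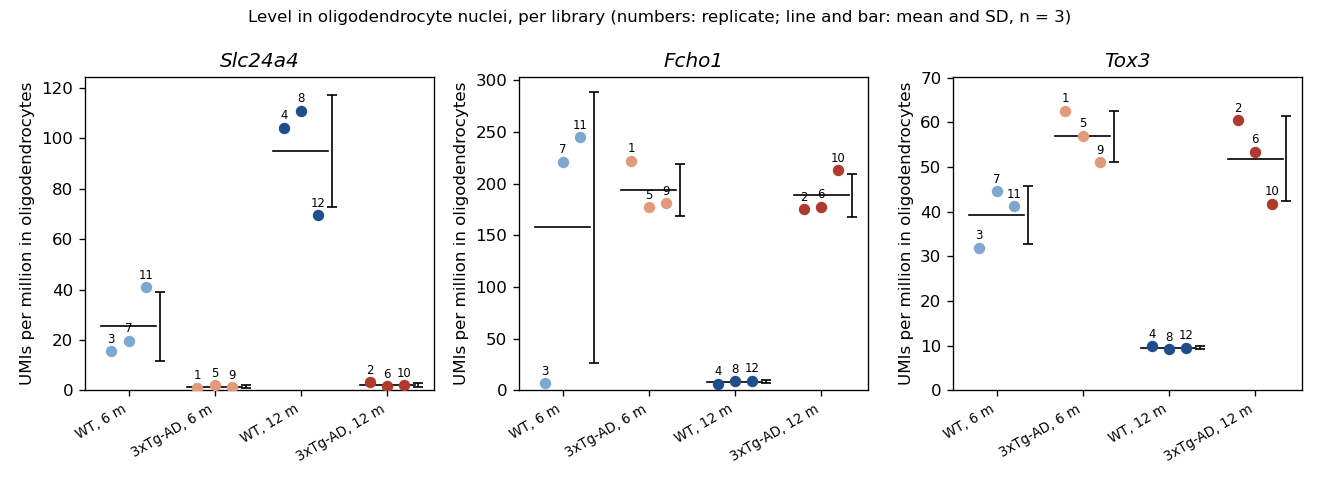
CPM of Slc24a4, Fcho1 and Tox3 in the oligodendrocyte nuclei of each of the 12 libraries, with the sample number beside each point and the mean and SD of each group of 3. Slc24a4 was at most 3.09 CPM in the 6 3xTg-AD libraries, and Fcho1 was at 6.84 CPM in WT library 3 and at 221 and 245 in the other 6-month WT libraries.

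Fcho1 showed the opposite order at 12 months and no common order at 6 months. Its 12-month level was 175, 178 and 213 CPM in 3xTg-AD libraries 2, 6 and 10 and 6.49, 8.96 and 9.27 CPM in WT libraries 4, 8 and 12, a log2 fold change of 4.52 (SE 0.14) that served to choose it. Every 3xTg-AD library was above every WT library, as for 7.51% of all genes. Ccdc61 (-4.77) and Tgfbr2 (-4.25) were the nearest genes above and below it in size. At 6 months, 3xTg-AD libraries 1, 5 and 9 held 222, 177 and 181 CPM, much as the 12-month 3xTg-AD libraries did. Among the 6-month WT libraries, library 3 held 6.84 CPM from 36 UMIs, library 7 held 221 CPM from 900 UMIs and library 11 held 245 CPM from 917 UMIs. The genotypes overlapped, the log2 fold change was 0.32 (SE 0.71, n = 3 per genotype), and the gene was not called (edgeR adjusted p = 0.929). The low level of library 3 was thus within the range of 12-month WT libraries, library 11 was above every 3xTg-AD library of its age, and library 7 above all of them except library 1. Without WT library 3 the log2 fold change at 6 months turned to -0.26 (SE 0.12, edgeR adjusted p = 0.489), and without library 7 or 11 it was 0.66 or 0.78.

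The Fcho1 level of WT library 3 was also compared in other cell classes. In OPCs library 3 held 7.91 CPM (11 UMIs) against 20.8 and 29.0 CPM in libraries 7 and 11, and in astrocytes 4.78 (24 UMIs) against 12.5 and 11.1 CPM. In excitatory neurons it held 35.6 against 44.3 and 59.5 CPM, and in inhibitory neurons 38.8 against 50.4 and 67.5 CPM. Library 3 was thus the lowest of the 6-month WT libraries in each of these 4 classes, by a smaller factor than in oligodendrocytes. In excitatory neurons library 3 was next to 3xTg-AD libraries 5 and 9 (35.7 CPM each) and within the 12-month WT range (34.1 to 38.9 CPM). In inhibitory neurons it was below the 6-month 3xTg-AD libraries (42.1 to 46.5 CPM) and within the 12-month WT range (34.5 to 41.7 CPM). Its Slc24a4 level in oligodendrocytes, 15.4 CPM, was next to the 19.7 CPM of library 7, and its 1882 oligodendrocyte nuclei had the deepest median of the 12 libraries, 2452 UMIs.

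Tox3 was higher in 3xTg-AD oligodendrocytes at 12 months and closer between the genotypes at 6 months. The 12-month level was 60.4, 53.4 and 41.8 CPM in 3xTg-AD libraries 2, 6 and 10 and 9.86, 9.17 and 9.49 CPM in WT libraries 4, 8 and 12, a log2 fold change of 2.39 (SE 0.19) used in the choice. Gm35835 (2.40) and Slpi (-2.38) stood next to it in size. The 6-month level was 62.6, 57.0 and 51.1 CPM in 3xTg-AD libraries 1, 5 and 9 and 31.9, 44.5 and 41.2 CPM in WT libraries 3, 7 and 11. Every 6-month 3xTg-AD library was above every 6-month WT library, as were 7.61% of all genes, but the log2 fold change of 0.55 (SE 0.14) did not pass the threshold (edgeR adjusted p = 0.120, unadjusted p = 0.00263). In WT mice every 12-month library (9.17 to 9.86 CPM) was below every 6-month library (31.9 to 44.5 CPM), an order found in 9.11% of genes, whereas the 3xTg-AD ranges of both ages overlapped. Here too the 12-month WT values were among those that chose the gene, so the order by age is a description alone. The difference between the 12-month and 6-month log2 fold changes was 1.85 for Tox3, 4.21 for Fcho1 and -1.47 for Slc24a4, given without a test because the 12-month values chose the genes.

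The levels followed the share of nuclei in which a gene was seen. Slc24a4 had at least 1 UMI in 16.0%, 17.2% and 13.9% of the oligodendrocytes of 12-month WT libraries 4, 8 and 12, in 2.97% to 6.51% of 6-month WT oligodendrocytes and in 0.216% to 0.506% of 3xTg-AD oligodendrocytes of both ages. Microglia, which have little of this gene, had a UMI of it in 0% to 1.74% of nuclei at a median of 1295 to 2248 UMIs, so the 3xTg-AD oligodendrocyte share, at a median of 1575 to 2272 UMIs, was within that background. Fcho1 had a UMI in 26.0% to 34.5% of 12-month and up to 35.0% of 6-month 3xTg-AD oligodendrocytes, in 34.9% and 36.5% of those of WT libraries 7 and 11, and in 1.91% of those of WT library 3. The 12-month WT share, 1.27% to 2.39%, was within the microglial range of 0% to 2.65%, and each of the 138 positive 12-month WT nuclei held a single UMI. Tox3 was found in 7.04% to 8.41% of 12-month 3xTg-AD and 1.39% to 1.65% of 12-month WT oligodendrocytes, and in 8.18% to 9.87% and 5.63% to 6.49% at 6 months, with 0% to 2.61% of microglia. When each nucleus was thinned to 1000 UMIs, leaving out 354 to 776 shallower nuclei per group, the orders held: 6.29% to 9.91% and 0.156% to 0.24% for Slc24a4 in 12-month WT and 3xTg-AD oligodendrocytes, 0.759% to 1.11% and 16.1% to 19.7% for Fcho1, and 0.625% to 0.757% and 3.64% to 4.56% for Tox3. In groups where a member was abundant, 71.6% to 79.1% of positive nuclei held 1 UMI, and no nucleus held more than 8.

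**Figure D2:**
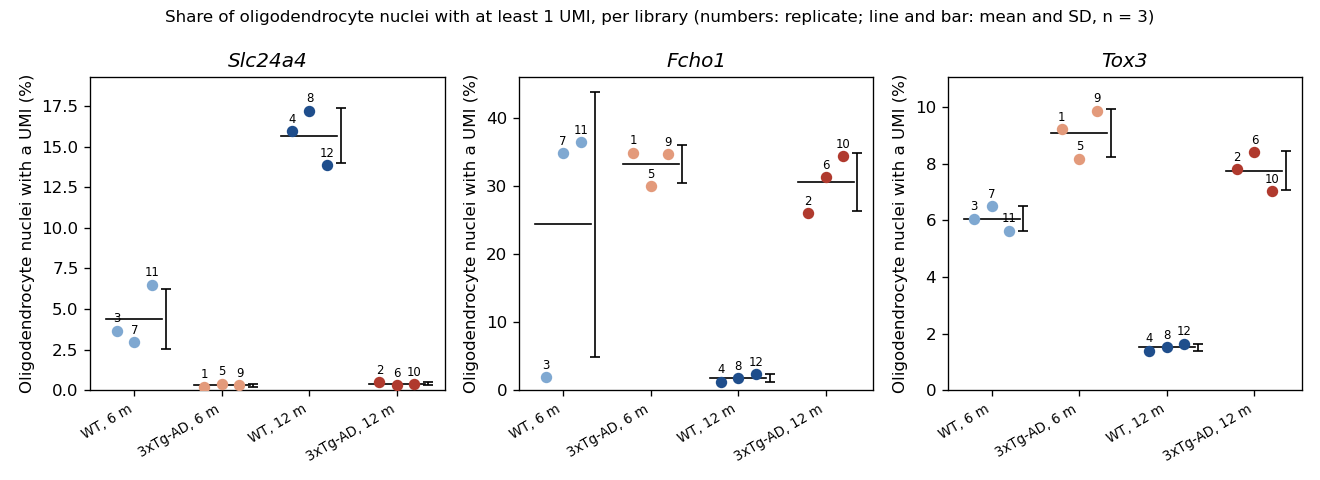
Percent of oligodendrocyte nuclei with at least 1 UMI of each gene in each of the 12 libraries, with the sample number beside each point and the mean and SD of each group of 3. The 12-month groups stood apart for all 3 genes, with 13.9% to 17.2% of WT nuclei positive for Slc24a4 and 26.0% to 34.5% of 3xTg-AD nuclei positive for Fcho1. The genes were chosen by the 12-month oligodendrocyte values of these libraries, so this separation is a description alone.

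In WT mice the members differed in where they were highest. Slc24a4 was highest in choroid plexus epithelium (mean 335 ± 179 CPM at 6 months and 417 ± 346 CPM at 12 months, SD, n = 3, from as few as 2 UMIs in a library) and ependymal cells (332 ± 63.8 and 224 ± 86.3 CPM), which overlapped each other and lay above the remaining classes. At 12 months oligodendrocytes followed with 95.0 ± 22.3 CPM, overlapping astrocytes (62.3 ± 42.3 CPM), which overlapped inhibitory neurons (38.8 ± 2.80 CPM). At 6 months oligodendrocytes, at 25.3 ± 13.7 CPM, ranked below astrocytes and inhibitory neurons and overlapped excitatory neurons (33.2 ± 9.33 CPM). OPCs, the cells oligodendrocytes arise from, held 2.97 ± 1.35 and 3.27 ± 1.28 CPM, from 2 to 6 UMIs in a WT library. Fcho1 had its highest 6-month mean in oligodendrocytes (158 ± 131 CPM, with libraries 7 and 11 at 221 and 245 CPM and library 3 at 6.84 CPM), overlapping inhibitory neurons (52.2 ± 14.4 CPM), which overlapped excitatory neurons (46.5 ± 12.1 CPM). It was highest in inhibitory and excitatory neurons at 12 months (38.6 ± 3.65 and 37.2 ± 2.70 CPM, overlapping), and 12-month WT oligodendrocytes (8.24 ± 1.52 CPM) overlapped microglia. Tox3 was highest in OPCs, at 257 ± 28.2 and 275 ± 5.46 CPM, followed by excitatory neurons at 123 ± 6.51 and 120 ± 6.77 CPM and inhibitory neurons at 64.6 ± 9.48 and 70.8 ± 8.71 CPM, and these 3 classes did not overlap each other at either age. WT oligodendrocytes held less Tox3 than any of them, 39.2 ± 6.53 CPM at 6 months and 9.51 ± 0.348 CPM at 12 months.

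**Figure D3:**
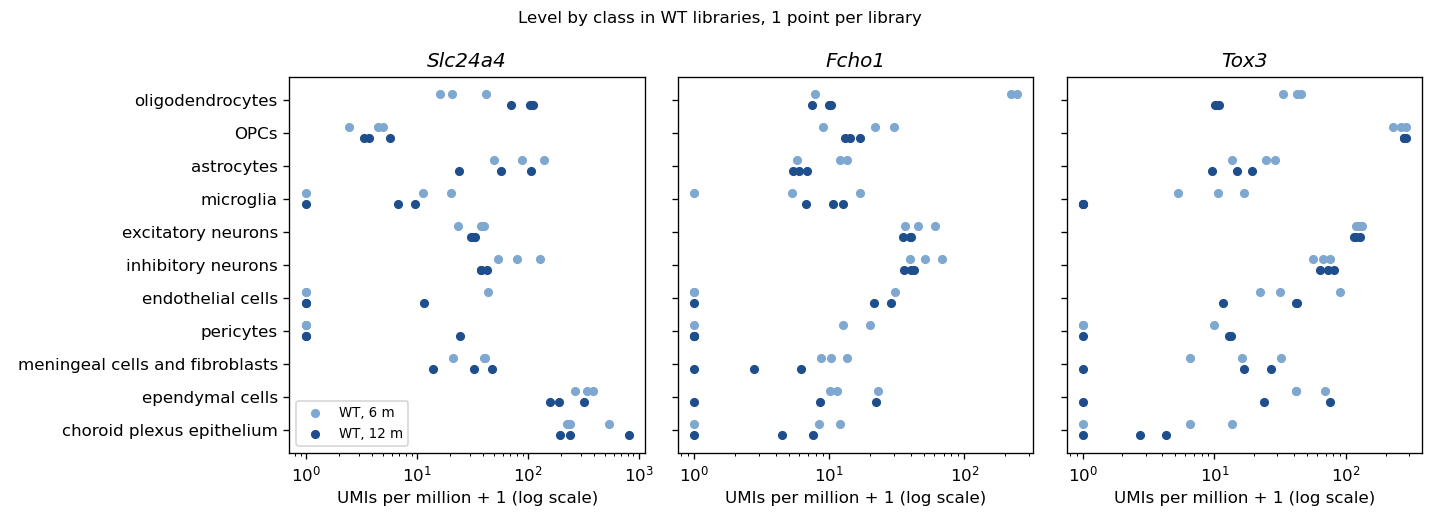
Level of each gene by cell class in the 6 WT libraries, as CPM plus 1 on a log axis, with 1 point per library and ages in 2 shades. Slc24a4 was highest in choroid plexus and ependymal nuclei, Tox3 in OPCs, and the oligodendrocyte points of the ages did not overlap for Slc24a4 and Tox3.

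The genotypes were compared in the other cell classes as well. The same test was run in OPCs, astrocytes, excitatory neurons, inhibitory neurons and microglia at each age, the 12-month classes coming from the same mice as the choice. At 6 months no member was called in any of them, where 0.636% of OPC genes, 0.937% of astrocyte genes, 1.25% of excitatory neuron genes, 1.01% of inhibitory neuron genes and 0.365% of microglial genes were called. DESeq2 called 0 of them too. At an unadjusted edgeR p under 0.05, 2 of 11 fits of a member in these classes passed at 6 months, both for Tox3, in OPCs (log2 fold change 0.30, SE 0.11) and inhibitory neurons (0.32, SE 0.13), where the same cut was passed by 8.2% of genes in OPCs, 10% in astrocytes, 11.5% in excitatory neurons and 9.42% in inhibitory neurons. Microglia held 0 to 4 UMIs of Slc24a4, 0 to 9 of Fcho1 and 0 to 4 of Tox3 per library and OPCs held 2 to 8 UMIs of Slc24a4, so these were below the filter and allow no statement on a difference.

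At 12 months 1 of the members was called in 1 other class, in the direction opposite to oligodendrocytes. Slc24a4 was at 97.7, 116 and 71.6 CPM in the inhibitory neurons of 3xTg-AD libraries 2, 6 and 10 and at 37.2, 42.0 and 37.1 CPM in those of WT libraries 4, 8 and 12, with a log2 fold change of 1.42 (SE 0.19, n = 3 per genotype) and an edgeR adjusted p = 0.0105. In this class and age 4.98% of genes were called, 2.69% higher, and the OPC, astrocyte, microglial and excitatory neuron shares were 0.564%, 0.652%, 1.29% and 1.01%. The summed 7 markers of striatal medium spiny neurons stood at 2203, 2206 and 1086 CPM in the same 3xTg-AD libraries and at 728, 1073 and 991 CPM in the WT libraries, with none of the markers at 0, so that the marker sum and Slc24a4 were both higher in every 3xTg-AD library. Of the 17 marker lists, 5 did not overlap in this class at 12 months, 2 being higher and 3 lower in 3xTg-AD. Every 3xTg-AD library was the higher for 8.81% of single tested genes. The share of genes for which every 3xTg-AD library was the lower is not given here. The lists of striatal neurons and border macrophages (2.54 to 2.99 and 1.38 to 2.52 CPM) were higher in 3xTg-AD. Those of newly formed oligodendrocytes (40.3 to 62.8 and 78.7 to 107 CPM), ependymal cells (8.96 to 18.7 and 22.6 to 36.2 CPM) and inhibitory neurons (529 to 582 and 608 to 631 CPM) were lower. At 6 months Slc24a4 overlapped between genotypes in this class (44.5 to 88.8 and 53.2 to 129 CPM), and the highest level, 129 CPM in WT library 11, stood in the library with the highest striatal marker sum, 2654 CPM. WT library 11 also held the most Slc24a4 of the 6-month WT libraries in oligodendrocytes (40.9 CPM) and astrocytes (139 CPM). At 12 months 3xTg-AD library 10 and WT library 8 had close striatal marker sums (1086 and 1073 CPM), with 71.6 and 42.0 CPM of Slc24a4. The part of the differences in the marker lists in the 12-month difference of Slc24a4 was not tested. The call was lost without 3xTg-AD library 2 (log2 fold change 1.37, edgeR adjusted p = 0.0574) or WT library 4 (1.44, adjusted p = 0.0548), and the number of genes called in this class ran from 52 without 3xTg-AD library 2 to 3070 without 3xTg-AD library 10, against 940 with all 6 libraries. Without library 10 Slc24a4 was called higher in excitatory neurons as well (0.42, edgeR adjusted p = 0.0331), and Fcho1 was called higher in inhibitory neurons (0.52, adjusted p = 0.00469). That Fcho1 call was 1 of the 3070 in its fit. The share of excitatory neuron genes called without library 10 is not given here, so neither call is read as a result on the member. The change of the genotype difference with age in inhibitory neurons, 1.80 (SE 0.44), did not pass (edgeR adjusted p = 0.0927), and 0 of 11 such changes of a member in another class than oligodendrocytes passed, with 4 of 11 at an unadjusted p under 0.05 (Slc24a4 in inhibitory neurons and Fcho1 in astrocytes and both neuron classes). That unadjusted cut was passed by 5.62% of genes in OPCs, 6.93% in astrocytes, 8.59% in excitatory neurons and 16.8% in inhibitory neurons. Such a change was called for 0.110% of genes in inhibitory neurons, 0.0464% in excitatory neurons, 0.0458% in OPCs, 0.0791% in astrocytes and 0.294% in microglia.

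**Figure D4:**
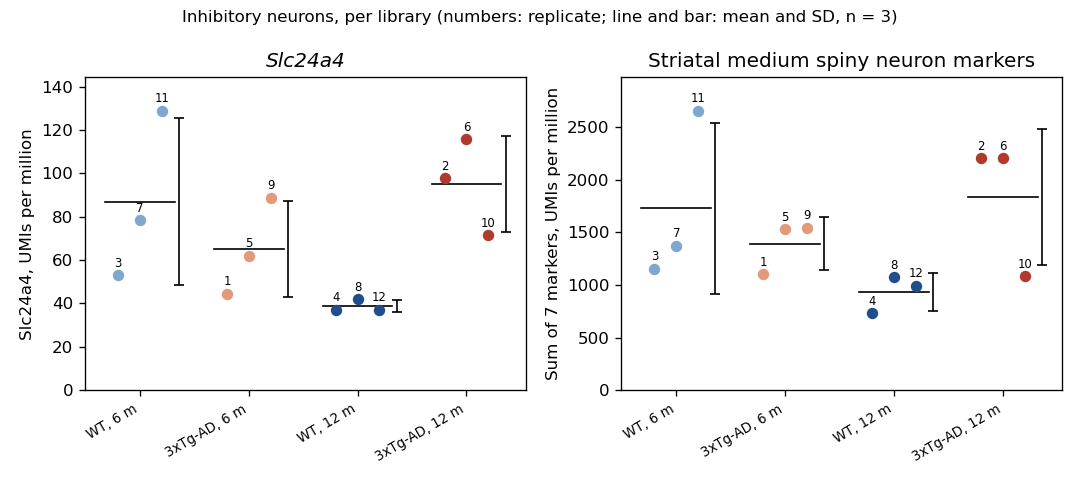
Slc24a4 and the sum of 7 striatal medium spiny neuron markers in the inhibitory neurons of each library, in CPM, with sample numbers and the mean and SD of each group of 3. At 12 months both were higher in every 3xTg-AD than in every WT library, and at 6 months both were highest in WT library 11.

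For Fcho1 and Tox3 the 12-month oligodendrocyte values, which chose the genes, are no measure against which other classes can be tested, so the other classes are given by themselves. Of 11 fits of a member in these classes at 12 months, 5 passed at an unadjusted edgeR p under 0.05, Slc24a4 in inhibitory neurons, Fcho1 in astrocytes and in both neuron classes, and Tox3 in astrocytes. The same cut was passed by 7.7% of genes in OPCs, 10.2% in astrocytes, 14.4% in excitatory neurons and 23.5% in inhibitory neurons. Fcho1 had log2 fold changes of 0.34 (SE 0.30) in OPCs, 0.82 (SE 0.25) in astrocytes, 0.23 (SE 0.10) in excitatory neurons and 0.43 (SE 0.10) in inhibitory neurons, with edgeR adjusted p = 0.896, 0.214, 0.344 and 0.0503. DESeq2 called Fcho1 higher in inhibitory neurons (0.43, adjusted p = 0.0117). The share of all genes that DESeq2 called in this class is not given here, while edgeR called 4.98% of them. In astrocytes, 3xTg-AD libraries held 8.84 to 9.04 CPM of Fcho1 and WT libraries 4.39 to 5.82 CPM, without overlap, and every 3xTg-AD library was the higher for 6.24% of genes there. In inhibitory neurons Fcho1 did not overlap either (44.7 to 49.9 and 34.5 to 41.7 CPM), an order found in 8.81% of genes, nor did it in microglia (13.7 to 15.1 and 5.78 to 11.5 CPM), from 2 to 9 UMIs per library and below the filter, where 7.45% of the genes that passed it had this order. Ambient RNA was not removed from these counts, and Mbp, a marker of the oligodendrocyte gate, reached 126 CPM in the other tested classes. The part of such oligodendrocyte transcripts in the Fcho1 levels of other classes was not tested. Tox3 had log2 fold changes of 0.13 (SE 0.14), 0.67 (SE 0.31), 0.21 (SE 0.14) and 0.00 (SE 0.13) in the same order of classes, with the smallest edgeR adjusted p, 0.485, in astrocytes. In OPCs, where Tox3 is highest, 3xTg-AD libraries held 243 to 349 CPM and WT libraries 271 to 281 CPM.

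**Figure D5:**
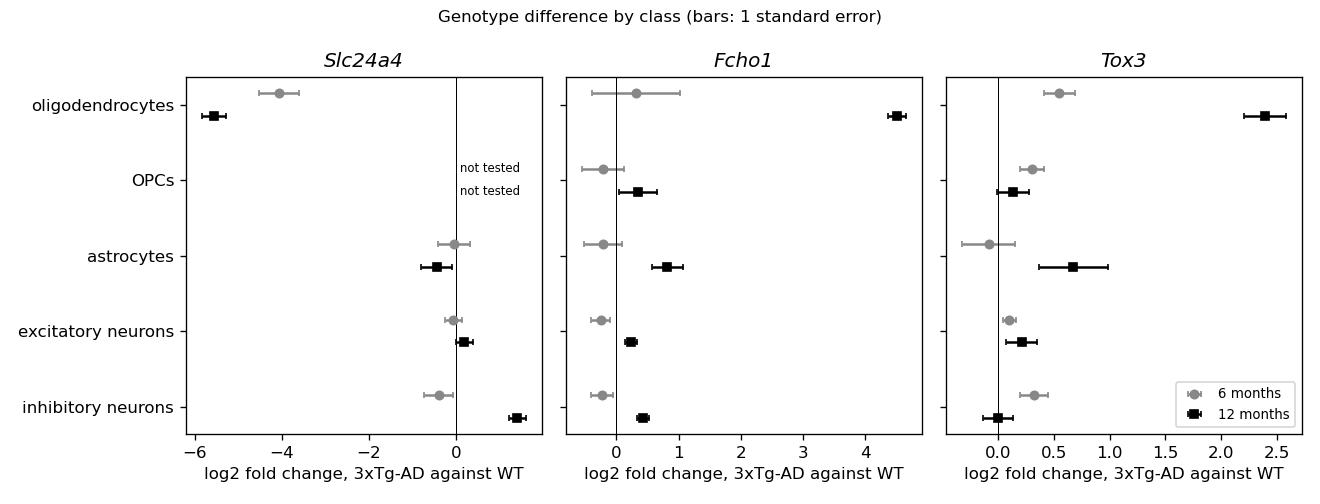
Log2 fold change of 3xTg-AD against WT with 1 standard error for each gene in 5 cell classes at 6 months (circles) and 12 months (squares), the scale of each panel being its own. The 12-month oligodendrocyte points, -5.55, 4.52 and 2.39, are those by which the genes were chosen and carry no test.

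Whether a difference was larger in oligodendrocytes was tested directly at 6 months, in a fit of both classes with the library as a block. For Slc24a4 the log2 fold change in oligodendrocytes was lower than in astrocytes by -4.11 (SE 0.27, edgeR adjusted p = 8.83e-07), than in excitatory neurons by -4.03 (SE 0.40, adjusted p = 0.000363) and than in inhibitory neurons by -3.73 (SE 0.25, adjusted p = 1.1e-05). In these fits 0.600%, 0.542% and 0.376% of genes were called. Astrocytes held 38.4 to 131 CPM of Slc24a4 in 3xTg-AD and 49.0 to 139 CPM in WT libraries at 6 months, and their log2 fold change was -0.03 (SE 0.37). For Fcho1 and Tox3 no difference between oligodendrocytes and OPCs, astrocytes, excitatory neurons or inhibitory neurons was called at 6 months by edgeR, or by DESeq2 in the same fit. At an unadjusted edgeR p under 0.05, 0 of 4 Fcho1 and 2 of 4 Tox3 differences (from astrocytes and excitatory neurons) passed, a cut that 7.71% of genes passed in the fit with OPCs, 8.76% with astrocytes, 8.20% with excitatory neurons and 7.69% with inhibitory neurons. In the fit with OPCs 0.600% of genes were called. The Fcho1 differences ran from 0.62 (SE 0.41) to 1.03 (SE 0.67) and those of Tox3 from 0.22 (SE 0.15) to 0.60 (SE 0.18), the last with an edgeR adjusted p = 0.205. The Fcho1 differences rested on single WT libraries, that from excitatory neurons being 0.14 without library 3 and 1.75 without library 7, and that from inhibitory neurons 0.14 and 1.80. The Tox3 difference from inhibitory neurons, 0.23, was 0.01 without library 3. At 12 months the same differences, as values, were -5.12 to -6.80 for Slc24a4 against astrocytes and neurons, 3.72 to 4.30 for Fcho1 and 1.76 to 2.41 for Tox3 against OPCs, astrocytes and neurons.

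Genes of the same families were described beside the members in oligodendrocytes, where 10.5% of all tested genes at 6 months and 10.3% at 12 months had an unadjusted edgeR p under 0.05. Counts of DESeq2 calls in the gene lists stand without the share of all genes that it called. Of 12 tested sodium/calcium exchangers and calcium pumps other than Slc24a4, 0 were called at either age by edgeR or DESeq2, with 0 at an unadjusted edgeR p under 0.05 at 6 months and 3 at 12 months (Slc24a5, Atp2b4 and Atp2a2). Their median log2 fold change was 0.08 at 6 months and 0.17 at 12 months, against 0.00 over all tested genes at both ages. Slc24a2, which encodes the related exchanger NCKX2, was at 6500 ± 362 CPM in 3xTg-AD and 6500 ± 316 CPM in WT oligodendrocytes at 6 months and at 6715 ± 899 and 6389 ± 519 CPM at 12 months (SD, n = 3). Of 29 tested genes of clathrin-mediated endocytosis other than Fcho1, 0 were called at either age by edgeR or DESeq2, with 1 (Ap2a1) at an unadjusted edgeR p under 0.05 at 6 months and 2 (Ap2a1 and Bin1) at 12 months, and medians of 0.01 and -0.05. Fcho2, the paralog of Fcho1, was at 190 ± 8.37 and 179 ± 7.58 CPM in 3xTg-AD and WT oligodendrocytes at 6 months and at 192 ± 13.5 and 163 ± 6.89 CPM at 12 months.

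Of 11 tested HMG-box genes of the Tox and Sox groups other than Tox3, 1 was called at 6 months and 0 at 12 months by edgeR, with medians of 0.02 and 0.11. The gene called was Tox, a paralog of Tox3 known for its part in T cell development, at 138 ± 17.2 CPM in 3xTg-AD and 73.6 ± 8.40 CPM in WT oligodendrocytes, a log2 fold change of 0.91 (SE 0.12, edgeR adjusted p = 0.00353, n = 3 per genotype). At 12 months Tox stood at 167 ± 11.5 and 92.2 ± 26.7 CPM (log2 fold change 0.81, SE 0.21, adjusted p = 0.107), and DESeq2 called it at both ages and also called Sox6 at 6 months. At each age 3 of the 11 passed at an unadjusted edgeR p under 0.05, Tox, Sox4 and Sox6, of which Sox4 (-0.93 and 0.95) and Sox6 (-0.76 and 0.47) had log2 fold changes below 0 at 6 months and above 0 at 12 months. Of 30 myelin and oligodendrocyte identity genes, 0 were called by edgeR at 6 months, when 7 passed at an unadjusted p under 0.05 and DESeq2 called Mobp and Mal, with medians of 0.02 at 6 and -0.08 at 12 months. At 12 months 2 passed that unadjusted cut (Nkx6-2 and Ptgds) and 1 was called by edgeR and DESeq2, Ptgds, which encodes a prostaglandin D synthase and was lower in 3xTg-AD (918 ± 177 against 1650 ± 443 CPM, log2 fold change -0.85, SE 0.19, edgeR adjusted p = 0.0479). Of 16 tested stress and immune genes 0 were called by edgeR or DESeq2 at 6 months, with 3 at an unadjusted edgeR p under 0.05 and a median log2 fold change of 0.30 (-0.01 at 12 months), and of 17 at 12 months 1 was called, Serpina3n, which encodes a secreted protease inhibitor and was lower in 3xTg-AD (1.92 ± 0.696 against 15.9 ± 1.18 CPM, log2 fold change -2.97, SE 0.26, edgeR adjusted p = 0.000117). At 12 months 4 of these genes passed at an unadjusted edgeR p under 0.05, and DESeq2 called Serpina3n and B2m. B2m, which encodes the light chain of MHC class I, was at 7.15 ± 4.52 CPM in 3xTg-AD and 2.20 ± 0.414 CPM in WT (log2 fold change 1.59, SE 0.45, edgeR adjusted p = 0.143). By absolute log2 fold change Slc24a4, Fcho1 and Tox3 ranked 9, 14 and 42 among 12787 genes at 12 months. At 6 months their ranks were 13, 2663 and 956 of 12456 genes.

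The genes next to the members on the chromosome were counted in the same fits of oligodendrocytes, against the same 10.5% and 10.3% of all genes at an unadjusted p under 0.05. Here too no share of all genes called by DESeq2 is given beside its counts. Of 15 tested genes that start within 1 Mb of Slc24a4, 0 were called by edgeR or DESeq2 at 6 or 12 months, with 1 and 2 at an unadjusted edgeR p under 0.05, and their largest absolute log2 fold changes were 0.40 and 0.48. Around Fcho1, 0 of 48 were called at 6 months (9 at an unadjusted edgeR p under 0.05, 2 by DESeq2) and 2 of 47 at 12 months (8 and 2 by the same measures), both lower in 3xTg-AD, Mast3 (-0.70) and Slc27a1 (-0.59). The largest absolute log2 fold changes around Fcho1 were 1.62 at 6 months and 1.37 at 12 months. Around Tox3, 0 of 7 were called at 6 months (1 at an unadjusted edgeR p under 0.05, 0 by DESeq2) and 4 of 7 at 12 months (4 at an unadjusted edgeR p under 0.05, 3 by DESeq2). Their largest absolute log2 fold changes were 0.99 at 6 months and 1.76 at 12 months. Gm35850, 0.46 Mb from Tox3, was higher in 3xTg-AD, with 12.1, 11.7 and 8.25 CPM in libraries 2, 6 and 10 against 3.25, 3.67 and 2.87 CPM in WT libraries 4, 8 and 12 (log2 fold change 1.64, edgeR adjusted p = 0.0111), as was Rpgrip1l (0.67), while Aktip (-0.53) and Gm45464 (-1.76) were lower. Of all genes tested on chromosome 8, 24 of 674 (3.56%) were called at 12 months and 7 of 661 (1.06%) at 6 months, and of those on chromosome 12, 6 of 480 (1.25%) and 5 of 471 (1.06%). Over all tested genes the shares were 1.70% at 12 months and 1.16% at 6 months. The members, chosen by their 12-month values, were not left out of these counts.

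The genes whose level followed each member most closely across the 12 oligodendrocyte libraries were ranked by Pearson's r of log2 CPM over 13176 genes, as a description over libraries that share genotype and age. Slc24a4 was followed by Sav1 (r = 0.97), Stau2 (0.95), Kif21a (0.95), Slpi (0.95) and Gm33948 (0.94). Sav1, which encodes an adaptor of the Hippo kinases and lies 32.2 Mb from Slc24a4 on chromosome 12, was at 37.0 to 38.9 CPM in 12-month 3xTg-AD, 89.2 to 137 CPM in 12-month WT, 38.5 to 42.1 CPM in 6-month 3xTg-AD and 78.1 to 96.3 CPM in 6-month WT oligodendrocytes. Fcho1 was followed by Zfp868 (0.94), Zfp846 (0.93), Clgn (0.93), Elmod2 (0.92) and Ints10 (0.92). Zfp868, Clgn, Elmod2 and Ints10, 4 of these 5, lie on chromosome 8 within 12 Mb of Fcho1, where the whole chromosome holds 5.29% of the genes compared. Clgn, which encodes an endoplasmic reticulum chaperone, was at 10.3 CPM in WT library 3 and 24.3 and 24.9 CPM in WT libraries 7 and 11. Elmod2, a GTPase-activating protein gene, was at 31.9, 70.1 and 85.8 CPM in the same libraries. The 12-month WT levels were 5.24 to 6.93 CPM for Clgn and 32.6 to 46.1 CPM for Elmod2, below the 15.8 to 24.2 and 57.0 to 77.9 CPM of the 12-month 3xTg-AD libraries. Genes picked for following a member over these libraries share much of its order by that choice, so these levels are a description alone. Tox3 was followed by 1700063D05Rik (0.94), Gm35850 (0.94), Rab4a (0.94), Dera (0.94) and Zfp846 (0.93), with Gm35850 and Rab4a on chromosome 8. Between members r was 0.87 for Fcho1 and Tox3, -0.73 for Slc24a4 and Fcho1 and -0.86 for Slc24a4 and Tox3, orders that their choice on the 12-month libraries had partly fixed.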

How the data were processed

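Per the labels and the study's methods, nuclei of 12 left hippocampi were profiled with 10x Genomics 3′ chemistry (v3) and reads were aligned to mm10 (GRCm38) with Cell Ranger 6.1.1. The authors deposited the filtered matrices of raw UMI counts, without normalization and before removal of ambient RNA, and these were used as deposited. Of 185643 nuclei, 184956 were kept, those with 500 to 10000 genes, a mitochondrial share of UMIs up to 5% and a complexity (ratio of log10 gene number to log10 UMI number) over 0.8. Each nucleus was assigned by summed marker UMIs per 10000 (minimum 80 for oligodendrocytes and astrocytes, 70 for OPCs and neurons, 25 for microglia), and nuclei past the minimum of several classes were set aside as mixed (5163). Excitatory and inhibitory neurons needed a 2-fold excess of their transmitter genes. Doublets, called with Scrublet (scanpy 1.11.5) in 0.992% of oligodendrocytes, were kept except in an alternative. Counts were summed per class and library (oligodendrocytes 3558645 to 10058035 UMIs) and tested with edgeR 4.0.16 (TMM, its filter on low counts, quasi-likelihood F test, two-sided), 3 against 3 libraries per age, with Benjamini-Hochberg adjustment. SE is the absolute log2 fold change over the root of F. Each library is 1 mouse, so the spread is between mice. DESeq2 1.42.0 was an alternative, as were RLE scaling, no filter, a fit of all 12 libraries, Leiden clusters (python-igraph 0.11.9), thinned counts, oligodendrocytes without transmitter UMIs and each library left out. The fits were also run on simulated data, whose outcome is not given and on which no result here rests.

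The members and lists were chosen with earlier results of these data known. Genes named are the members, called genes of the fixed lists, called genes within 1 Mb of a member, the 5 genes most like each member, marker genes and the genes next to a member in rank at 12 months. Further names stand for counts of 5 or fewer, or were singled out after their values were seen (Slc24a2 and Fcho2). Positions are from GENCODE vM21 (GRCm38), matched for 32235 of 32285 genes, and promoter windows from RefSeq (GRCm38.p6), matched for 3 of 3 members. A further item of the naming rule is not reported here.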

Additional observations from a re-analysis of the deposited data

Results flagged for a closer look

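The genotype difference of Slc24a4 in oligodendrocytes stood apart from that in other classes of the same 6-month libraries by a test of the difference itself. It was -4.11 on the log2 scale against astrocytes, -4.03 against excitatory neurons and -3.73 against inhibitory neurons, with every 6-month 3xTg-AD library below every WT library in oligodendrocytes and overlapping ranges in the other 3 classes. At 12 months the same gene moved in opposite directions, with every 3xTg-AD library below every WT library in oligodendrocytes and above every WT library in inhibitory neurons, a difference of -6.80. That 12-month difference was not tested, because the oligodendrocyte values chose the gene.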

How the results depend on the processing

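No paired analysis was run, because the labels name no pairs of libraries. The sample numbers run through the groups in turn, and a fit blocked by that order was not run. In oligodendrocytes at 6 months the log2 fold change of Slc24a4 stayed called under all 8 alternatives (-4.60 to -3.42) and without each library in turn (-4.47 to -3.56), and its differences from astrocytes and neurons stayed called too. The number of genes called there was 144 of 12456 (1.16%), against 571 without the filter on low counts and 64 to 181 without 1 library (64 without 3xTg-AD library 5, 85 without WT library 7 and 85 without 3xTg-AD library 9). Without the filter Tox3 was called (0.55), as were the differences of Tox3 from astrocytes (0.61) and of Fcho1 from excitatory (1.05) and inhibitory neurons (1.02). The shares of all genes called in these unfiltered fits are not given here, so these calls are not read as results on the members. Those Fcho1 differences, with the filter, ran from 0.14 to 1.75 and from 0.14 to 1.80 when 1 library was left out, lowest without WT library 3 and highest without WT library 7, and none was then called. Fcho1 ran from -0.26 to 0.78 when 1 library was left out, turning only without WT library 3. At 12 months the number of other classes in which Fcho1 was called rose from 0 to 1 with RLE scaling, no filter, DESeq2 and Leiden clusters (0 to 1 without 1 library), that of Tox3 from 0 to 1 without the filter, and that of Slc24a4 was 0 to 2 without 1 library. For these alternatives too the shares of all genes called are not given here. The 12-month oligodendrocyte values moved by less than the spread between libraries under every alternative run. The cause of these shifts was not tested, apart from the wider set of genes tested without the filter. Classes with few UMIs of a member, microglia and for Slc24a4 OPCs, limit what can be said of them.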
